A study of Mus musculus and Homo sapiens with 20 samples.

Results

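The cytosolic ribosomal protein genes were followed through 20 CUT&Tag peak lists, in which an antibody directs a transposase to a histone mark and the enriched stretches of the genome are listed as peaks. Members were the autosomal protein-coding genes whose symbol is Rpl or Rps, an optional p, a number and at most 1 further letter. They numbered 75 of 20807 autosomal protein-coding genes in mouse, 46 of the large subunit and 29 of the small, and 76 of 19111 in human, 46 and 30. In each species 4 genes of the same pattern on the sex chromosomes were left out. The lists covered 10 groups of 2 libraries. H2AK119ub and H3K27me3 were each mapped in a wild-type (WT) and a Tet2 knockout (KO) line of mouse embryonic stem (mES) cells, 1 line per genotype, grown in serum, LIF, 3 µM CHIR99021 and 1 µM PD0325901 and cleared of feeder cells before use. Both marks were also mapped in HSPCs, here the Lin- c-Kit+ fraction of bone marrow obtained with magnetic beads, from C57BL/6 WT and Tet2-/- mice of both sexes aged 6 to 8 weeks. For the human leukaemia line K562 the lists hold H2AK119ub alone, after control siRNA (siControl) or siRNA against MBD6 (siMBD6), a methyl-CpG-binding-domain protein. The labels do not say whether the 2 libraries of a group came from separate animals or cultures, so the p-values below measure only the spread between these libraries.

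Ribosomal protein genes encode the protein part of the cytosolic ribosome, are transcribed at a high rate in nearly every cell, and mostly start at a pyrimidine-rich initiator within a CpG island. H2AK119ub is the monoubiquitin that Polycomb repressive complex 1 places on histone H2A, and H3K27me3 is the trimethylation that Polycomb repressive complex 2 places on histone H3. Both marks are best known from the CpG-island promoters of silent developmental genes, and broad low-level H2AK119ub is also found outside them. TET2 is a dioxygenase that oxidizes 5-methylcytosine and is often mutated in myeloid malignancy.

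Each promoter was taken as the gene start and 1 kb on each side, and its cover is the percent of those 2000 bases under peaks. The lists held 85121 to 167378 peaks, and 30.4 to 41.4% of the peaks of a list were exactly 501 bp, the commonest width, below which no list held more than 6 peaks. A single such peak gives a cover of 25.05%. The lists carry no read counts or scores, so the depth is unknown, an absent peak is a peak not called rather than a mark at 0, and a peak does not tell a mark present in all cells from one present in some. The HSPC H2AK119ub lists were shorter than the mES lists, 112734 to 136735 against 154919 to 167378 peaks. WT replicate 2 of the HSPC H2AK119ub libraries stood apart, with the shortest of those lists and a median widest peak of 2550.5 bp over the touched members, against 1419 to 1657 bp in the other 3. Set beside the labels, the pluripotency genes Pou5f1 and Nanog had an H3K27me3 cover of 0% in all 4 mES libraries and of 100% in all 4 HSPC libraries. The H3K27me3 cover of Sox2 was 0% in 3 mES libraries, 11.2% in WT replicate 2 and 100% in the 4 HSPC libraries. Of all 8 mES markers, H3K27me3 touched 1 to 3 in mES cells and 6 in HSPCs. Of 10 HSPC markers it touched 8 to 9 in mES and 7 to 8 in HSPC libraries, so that list did not separate the cell types, and of 16 markers of other blood cells and fibroblasts 11 to 13 and 8 to 11. H2AK119ub went the other way at the mES markers, touching 7 to 8 of 8 in mES cells and 4 to 6 in HSPCs. It touched 9 of 10 HSPC markers in every library of both cell types, so the marker check rests on H3K27me3. The markers were read for a repressive mark and not for expression, and in K562 they gave no clear reading, since the erythroid gene KLF1 had an H2AK119ub cover of 94.2 to 100%. The peaks do not test whether TET2 or MBD6 was lost.

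The promoter sequences of 4 members are shown because these genes carry the contrasts described below. Rps12 had H2AK119ub peaks in all HSPC and no mES libraries, Rpl41 had the largest H2AK119ub difference between the cell types, Rps19 held both marks in both WT cell types, and Rpl10l was the exception in the opposite direction. The sequences are from RefSeq on GRCm38.p6, run 5′ to 3′ on the strand of the gene from 250 bases before to 50 after the RefSeq start, and have each CpG in capitals. Rps12 is at chr10:23787160-23787459 on the minus strand and holds 29 CpGs, Rpl41 at chr10:128549119-128549418 on the minus strand and holds 16, Rps19 at chr7:24884342-24884641 on the plus strand and holds 23, and Rpl10l at chr12:66284352-66284651 on the minus strand and holds 13. Each stretch reaches from upstream sequence into the start of the gene.
Rps12: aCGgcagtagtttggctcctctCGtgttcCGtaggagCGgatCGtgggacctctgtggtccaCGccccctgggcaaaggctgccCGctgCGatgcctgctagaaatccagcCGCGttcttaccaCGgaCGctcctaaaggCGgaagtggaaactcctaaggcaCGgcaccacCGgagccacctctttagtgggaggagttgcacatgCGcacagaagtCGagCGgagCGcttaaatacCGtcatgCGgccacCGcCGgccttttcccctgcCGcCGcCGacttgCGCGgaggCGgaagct
Rpl41: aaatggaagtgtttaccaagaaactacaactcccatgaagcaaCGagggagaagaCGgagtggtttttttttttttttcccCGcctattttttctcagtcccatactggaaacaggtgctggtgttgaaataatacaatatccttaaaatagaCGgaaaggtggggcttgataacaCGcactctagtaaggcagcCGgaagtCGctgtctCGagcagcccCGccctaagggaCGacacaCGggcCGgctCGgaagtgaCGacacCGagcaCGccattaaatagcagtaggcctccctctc
Rps19: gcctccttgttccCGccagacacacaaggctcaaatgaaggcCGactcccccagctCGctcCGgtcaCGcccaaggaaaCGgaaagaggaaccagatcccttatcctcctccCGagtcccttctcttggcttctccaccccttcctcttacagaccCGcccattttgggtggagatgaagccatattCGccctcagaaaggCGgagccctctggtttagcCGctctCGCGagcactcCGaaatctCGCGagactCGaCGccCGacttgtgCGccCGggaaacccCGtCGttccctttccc
Rpl10l: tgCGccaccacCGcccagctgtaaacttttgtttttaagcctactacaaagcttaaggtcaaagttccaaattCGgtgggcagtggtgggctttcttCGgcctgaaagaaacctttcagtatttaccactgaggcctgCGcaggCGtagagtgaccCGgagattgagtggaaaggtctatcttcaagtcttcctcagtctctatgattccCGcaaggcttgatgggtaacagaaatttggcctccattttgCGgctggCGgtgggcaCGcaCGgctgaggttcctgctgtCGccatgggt

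In HSPCs, nearly every ribosomal protein gene had an H2AK119ub peak at its promoter, in contrast to mES cells and to K562. Peaks touched 73 and 72 of the 75 members in the WT libraries and 72 and 73 in the KO libraries, or 96.0 to 97.3%, beside 65.6 to 72.7% of all genes. In mES cells they touched 48 and 56 members in WT and 51 and 51 in KO, or 64.0 to 74.7%, beside 69.2 to 70.3% of all genes. The mES share thus lay near that of all genes and the HSPC share above it, with the 4 HSPC libraries all higher than the 4 mES libraries. Mean cover of the members was 64.4 to 71.2% in HSPCs and 28.1 to 32.1% in mES cells, and that of all genes was 41.9 to 50.5% and 43.7 to 44.8%.

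**Figure D1:**
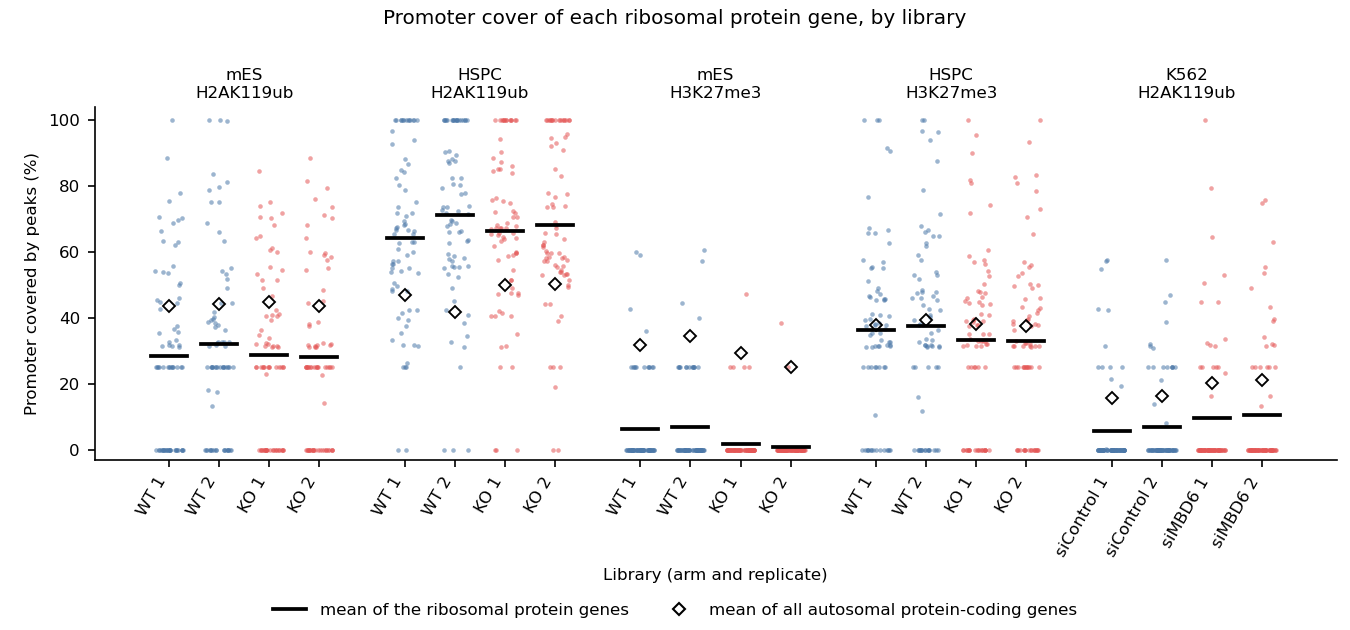
Each point is the percent of 1 ribosomal protein gene's promoter (2 kb around the start) under peaks in 1 library; black bars are the mean over the members, open diamonds the mean over all autosomal protein-coding genes, and colours separate the arms. The H2AK119ub bars lie at 64.4 to 71.2% in HSPCs, above the diamonds, and at 28.1 to 32.1% in mES cells, below them.

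The difference held for single promoters. Of 74 members tested, 54 had a higher H2AK119ub cover in HSPCs and 1 a lower one (limma, Benjamini-Hochberg over all 16555 promoters tested, adjusted p under 0.05), beside 19.6% and 12.1% of all promoters tested. Only promoters touched in at least 2 of the 8 libraries of the mark entered the fit. Without this filter 46 of 75 were higher, beside 13% of all promoters, and 1 was lower. Members with 0% in every library of 1 cell type, such as Rps12, Rps26 and Rpl10l below, entered the fit through the other cell type alone. Their p-values, for either mark, therefore carry no weight of their own. The groups of 4 libraries did not overlap at 59 of the 74 members that were higher and 1 that was lower, beside 20.3% and 11.2% of all promoters tested. The median difference over the 75 members without the filter was 38.7 percentage points, and that over all genes 0.

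Rpl41 encodes the smallest ribosomal protein. Its H2AK119ub cover was 25.05% and 0% in the WT and 0% and 0% in the KO mES libraries, and 100% in all 4 HSPC libraries, where its widest peak was 4021 to 7798 bp. The 2 cell types did not overlap, and the difference was 93.74 points (SE 6.31, limma adjusted p = 0.000867). At Rps12, a small-subunit gene that also hosts snoRNAs, the cover was 0% in every mES library and 78.8 and 89.6% in the WT and 74.9 and 64.05% in the KO HSPC libraries (difference 76.84 points, SE 3.86, adjusted p = 0.000391 by limma). Rps26, a small-subunit gene mutated in Diamond-Blackfan anaemia, also had 0% in every mES library, and 68.35 and 100% in the WT and 59.9 and 53.25% in the KO HSPC libraries (70.38 points, SE 7.42, limma adjusted p = 0.00311).

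Rps2 showed a difference that depends on the start taken. At the start used, its cover was 0% in every mES library, 100% in both WT HSPC libraries and 64.5 and 69.05% in the KO HSPC libraries. RefSeq starts this gene 1947 bp downstream, and there the mean cover in mES cells was 34.7% over the 4 libraries. The start used also lies 53 bp from that of Rnf151, so peaks at the 2 genes cannot be told apart. The other members among the 10 largest differences were Rpl23, Rpl8, Rpl27a, Rpl9, Rps28 and Rpl31, all of them higher in HSPCs by 57.92 to 63.38 points. Rpl9 starts 53 bp from Lias and Rps28 10 bp from Ndufa7, so their peaks cannot be told apart from those of these neighbours. Rpl27a lost its call in 5 of 15 alternative settings.

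A peak was gained in HSPCs, touching the promoter in all 4 HSPC and in none of the 4 mES libraries, at 11 members, beside 2.16% of all genes. These were Rps2, Rps12, Rps26, Rpl9, Rps7, Rps15a, Rps9, Rpl17, Rpl32, Rpl35a and Rpl5. The reverse held at 1 member, Rpl10l, beside 2.05% of all genes. Of the 75 members, H2AK119ub touched 71 in all 4 HSPC libraries and 2 in none, which were Rpl10l and Rpl39l, and it touched 40 in all 4 mES libraries and 14 in none. The first 5 of those 14 by symbol were Rpl17, Rpl24, Rpl32, Rpl35a and Rpl39l.

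Rpl10l is a retrocopy of an X-linked ribosomal protein gene and is known for its role in male germ cells. Its H2AK119ub cover was 77.95 and 44.65% in the WT and 71.8 and 58.65% in the KO mES libraries, and 0% in all 4 HSPC libraries. The difference was −63.26 points (SE 8.16, limma adjusted p = 0.0057). Its H3K27me3 cover followed the same order, with 59.1 and 60.55% for the WT mES libraries, 47.3 and 38.6% for the KO ones and 0% throughout the HSPC libraries (−51.39 points, SE 2.16, adjusted p = 6.77e-05 by limma). Rpl10l was the 1 member with H3K27me3 peaks in all 4 mES libraries. Another copy of an X-linked gene, Rpl39l, had no peak of either mark in any mouse library.

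The other paralogues were closer to the main set. Rpl3l, known from heart and skeletal muscle, had an H2AK119ub cover of 44.55 and 18.15% in the WT mES libraries and 55.5 and 55.2% in the KO ones. The WT HSPC libraries had 69.45 and 42.35% and the KO ones 70.75 and 53%, and the cell types overlapped (limma adjusted p = 0.284). Rps27l, a known p53 target, had 51.6 to 60% over the mES libraries and 62.05 to 79.4% over the HSPC libraries, which did not overlap but did not pass the test (limma adjusted p = 0.154).

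Among members with known roles outside the subunit body, the P-stalk genes, whose products recruit the translational GTPases, were all higher in HSPCs for H2AK119ub. Their differences were 21.8 points at Rplp0 (SE 5.35), 28.1 at Rplp1 (SE 3.75) and 36.72 at Rplp2 (SE 9.47), with limma adjusted p-values of 0.0357, 0.00626 and 0.0405. Rpl5 and Rpl11 encode proteins that bind MDM2 and so link ribosome assembly to p53. Rpl5 had 0% in all mES libraries, 57.45 and 38.5% with HSPC WT and 31.35 and 44.25% with HSPC KO. Rpl11 ranged from 25.05 to 37.85% over the mES libraries and from 62.8 to 94.2% over the HSPC libraries (43.15 points, SE 8.44, limma adjusted p = 0.0189). Rps6, a substrate of S6 kinase, differed by 47.86 points (SE 7.22, adjusted p = 0.00887 by limma).

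Rps19 is the gene most often mutated in Diamond-Blackfan anaemia, an inherited red cell aplasia. Its H2AK119ub cover was 50.7 and 66.15% in the WT mES libraries and 46.8 and 48.45% in the KO ones. The WT HSPC libraries had 80.5 and 100% and the KO ones 85.15 and 100% (38.39 points, SE 7.25, limma adjusted p = 0.0171). Its H3K27me3 cover was 35.95 and 44.6% in the WT mES libraries, 25.05 and 0% in the KO ones and 46.55 to 87.65% over the HSPC libraries (46.01 points, SE 10.06, adjusted p = 0.016 by limma). Of 19 genes linked to this anaemia, most of them members, H2AK119ub touched 19 in every HSPC library and 11 to 14 in the mES libraries. H3K27me3 touched 12 to 15 of them in HSPCs and 0 to 6 in mES cells.

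**Figure D2:**
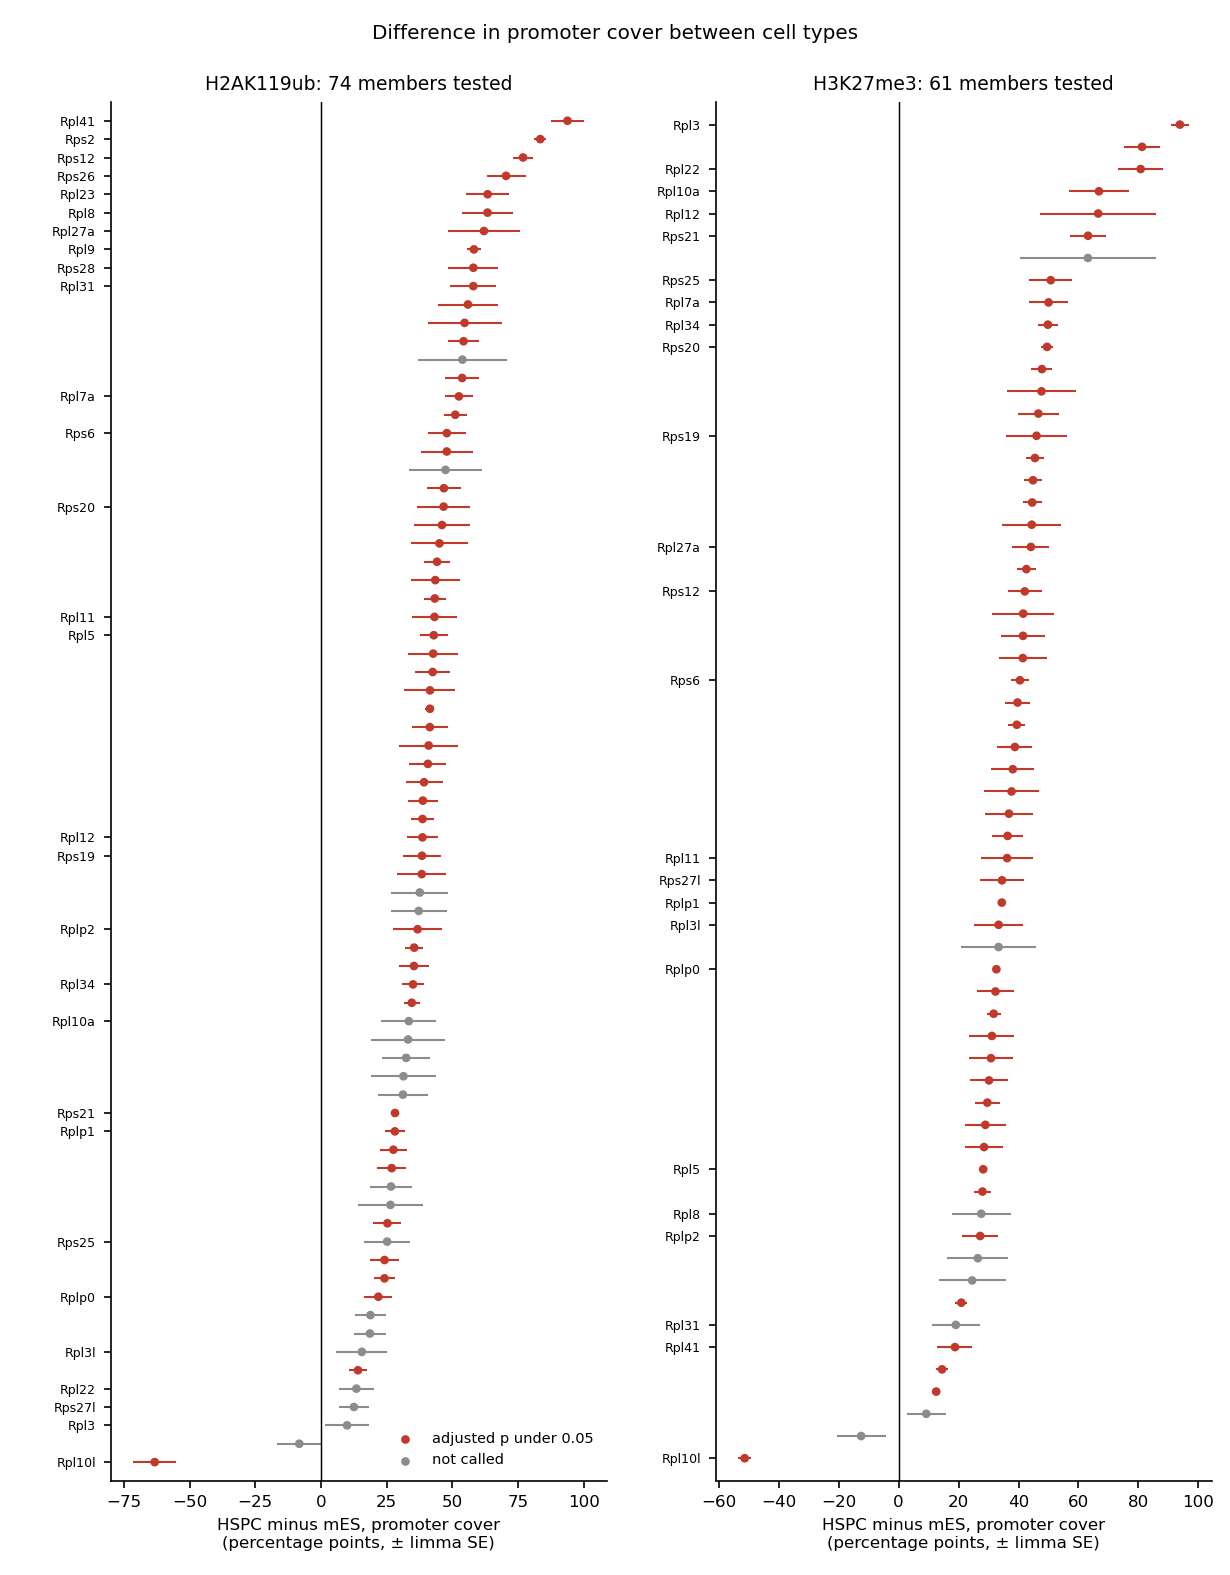
Points are the difference in promoter cover between HSPCs and mES cells in percentage points (4 libraries of each) for every ribosomal protein gene tested, with bars of 1 SE; red marks an adjusted p under 0.05, and names are given for some members. Nearly all points lie to the right of 0 for both marks, and Rpl10l lies far to the left, at −63.26 for H2AK119ub and −51.39 for H3K27me3.

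By the share of members touched, H3K27me3 separated the cell types further than H2AK119ub, by 63.7 against 28 points. By the median difference in cover without the filter it did not, at 33.35 against 38.7 points. With peaks of at least 1 kb the order of the marks for the share touched was reversed, as given in the last section. H3K27me3 touched 15 and 17 members in the WT and 5 and 2 in the KO mES libraries, or 2.67 to 22.7%, beside 37.6 to 50.9% of all genes. In HSPCs it touched 60 and 58 in WT and 55 and 57 in KO, or 73.3 to 80%, beside 60.5 to 62.7%. Of 61 members tested, 52 were higher in HSPCs and 1 lower (limma over 15094 promoters), beside 41.1% and 15.6% of all promoters tested. H3K27me3 touched 53 of the 75 members in no mES library. Most of the 61 tested thus entered the fit through their HSPC libraries alone, and their p-values carry no weight of their own. Without the filter 50 of 75 were higher, beside 26.7%. When only peaks of at least 1 kb were used, 23 members were tested, of which 9 were called higher and 1 lower, beside 26.1% and 17.6% of all promoters tested. Peaks were gained in HSPCs at 29 members and lost at 1, beside 11.7% and 2.74% of all genes.

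Rpl3, Rpl22, Rpl10a and Rpl12 were among the members with the largest H3K27me3 differences. Rpl12 had 10.65% in HSPC WT replicate 1 and 80.85 to 93.95% in the other HSPC libraries. It starts 55 bp from Lrsam1 and lost its call in 9 of 15 alternative settings. Rpl22, whose product is dispensable for growth but needed in T cell development, had 25.05% in 1 mES library, 0% in the other 3, and 70.55 to 96.7% in HSPCs (80.76 points, SE 7.61, adjusted p = 0.000942 by limma). Rpl3 had 0% in mES cells and 81.9 to 100% in HSPCs (93.85 points, SE 3.05, limma adjusted p = 2.71e-05). It entered the fit through its HSPC libraries alone, so its p-value carries no weight of its own. Its start lies 534 bp from that of Syngr1 and 8462 bp from its own RefSeq start, where the mean HSPC cover was 44.6%. Other called members with large differences were Rps21, Rps25, Rpl7a, Rpl34 and Rps20, at 49.52 to 63.2 points. H3K27me3 touched none of the 4 HSPC libraries at 8 members, which were Rpl6, Rpl10l, Rpl24, Rpl32, Rpl39l, Rps2, Rps10 and Rps26, and 48 members in all 4. At the RefSeq start of Rps2 the 4 HSPC libraries had 37.7 to 76.4%, so its place among the 8 depends on the start taken.

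The 2 marks shared most member promoters in HSPCs and few in mES cells. Counting a mark only where both libraries of an arm had it, WT HSPCs held both at 54 members, H2AK119ub alone at 18, H3K27me3 alone at 0 and neither at 3. KO HSPCs gave 52, 20, 0 and 3. WT mES cells held both at 9 members, H2AK119ub alone at 37, H3K27me3 alone at 1 and neither at 28, and KO mES cells gave 1, 44, 0 and 30. Over all genes both marks were found at 47.9% in WT and 51.8% in KO HSPCs, and at 42.7% in WT and 33.6% in KO mES cells. H2AK119ub alone was found at 15.2% and 17.6% of all genes in WT and KO HSPCs, and at 22.9% and 32.3% in WT and KO mES cells.

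Rps14, Rpl3 and Rpl22 were among the members with the highest H2AK119ub cover in mES cells, at 74.7 to 83.8% in the mean of 4 libraries. At the RefSeq start of Rps14, 27498 bp downstream, that mean was 6.3%, and at that of Rpl3 it was 23%. In HSPCs Rpl10a, Rpl12, Rpl18, Rpl36 and Rpl41 were at 100%, and the widest peaks of any library touched Rps15 (47089 bp), Rpl36 (19213 bp) and Rpl18 (19017 bp). At Rps15 that width was in WT replicate 1 alone, with 12213 to 18269 bp in the other libraries. In mES cells a peak of 17912 bp touched Rpl18 in KO replicate 1 alone, with 772 to 1466 bp in the other libraries. Rps15 had up to 11099 bp, and 1818 bp in WT replicate 2. For H3K27me3 the members with high cover in mES cells included Rpl10l, Rpl7, Rps19, Rpl18 and Rpl13a, at 18.8 to 51.4%, and the widest peaks touched Rpl7 (3340 bp), Rpl10l (1211 bp) and Rps19 (892 bp). In HSPCs they included Rpl3, Rpl22, Rps19 and Rpl7, at 70.8 to 93.8%. A peak of 8499 bp touched Rpl17 in WT replicate 2 alone, where 16% of the promoter was covered, with at most 1141 bp in the other libraries. Rpl22 had 6036 bp in KO replicate 1 and 1411 to 2676 bp in the others. H3K27me3 touched 53 members in no mES library. Rpl7 starts 1112 bp from Rdh10, so its wide peak cannot be assigned to 1 of these genes.

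The shape of the peaks differed as well. In mES cells the H2AK119ub peaks at touched members had a median width of 636 to 751.5 bp per library, against 1724 to 1802 bp at all touched genes, and 27.5 to 39.2% of touched members had a peak of exactly 501 bp. In HSPCs the medians were 1419 to 2550.5 bp against 1682 to 1975 bp, and 1.39 to 4.11% were of that width. At the start base 61.3% of the members lay under H2AK119ub in mES cells and 57.1% of all genes. At 1 kb downstream these shares were 6.67% and 37.9%. In HSPCs the members lay under the mark more often downstream, with 90.7% at the start, 83% at 0.5 kb and 47.7% at 5 kb. The shares of all genes there were 59.7%, 52.7% and 21.7%. The share of members was also higher at 5 kb upstream, at 30.3% beside 19.6%. Rpl41, for example, spans 1192 bp, so for such short members the base at 5 kb lies beyond the gene. The median share of the gene span under peaks was 45 to 66.5% in HSPCs and 5.0 to 10.4% in mES cells. For H3K27me3 in HSPCs the members were at 67.3% at the start and 5.0% at 1 kb downstream, beside 52.7% and 28.7% of all genes, a narrower profile than that of H2AK119ub.

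**Figure D3:**
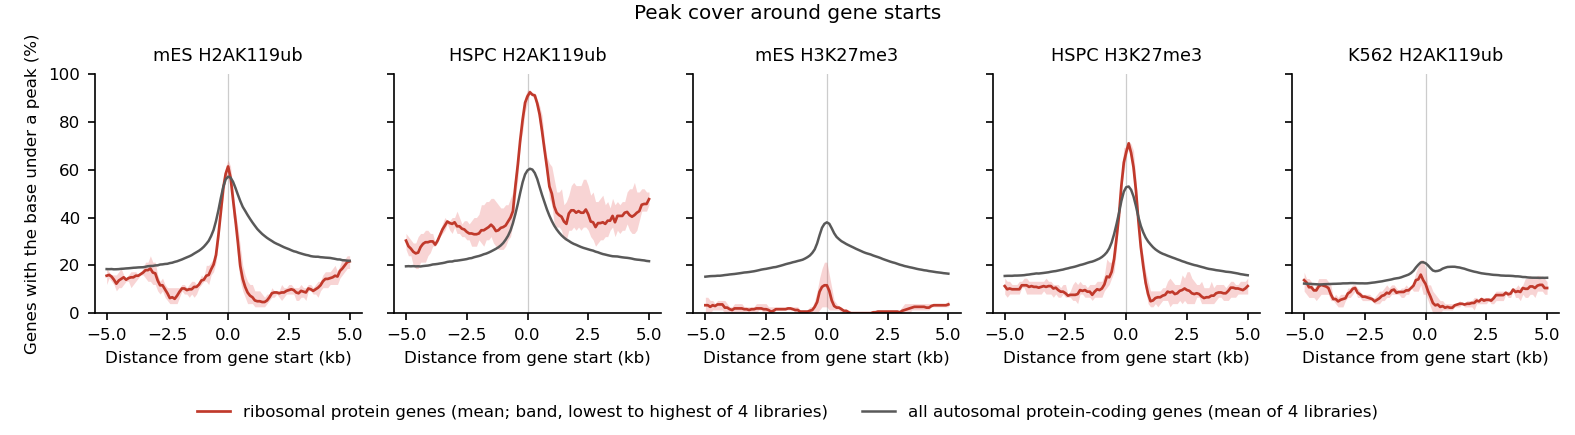
The percent of genes with the base under a peak (vertical axis) is drawn against distance from the gene start in kb for each cell type and mark, for the ribosomal protein genes (red, band over 4 libraries) and all genes (grey). In mES cells the red H2AK119ub line falls to 6.67% at 1 kb downstream, while in HSPCs it is at 47.7% at 5 kb, beyond the end of short members.

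In mES cells, H3K27me3 touched fewer members in the KO than in the WT libraries, and over all genes its share was lower too. It touched 21.3% ± 1.89 of the members in WT (SD, n = 2) and 4.67% ± 2.83 in KO (SD, n = 2), a difference of −16.7 points, and over all genes the shares were 49.7 and 39.8%. The KO library with the shorter list was replicate 2, and without it the difference was −14.7 points. It was −2.67 points with peaks of at least 1 kb, and −2.67 where 50% of the promoter had to be under peaks. Peaks were lost at 4 members, Rpl7, Rpl31, Rpl26 and Rpl37, beside 5.87% of all genes, and gained at 0, beside 0.457%. Rpl7 had 60.1 and 57.25% in WT and 0% in both KO libraries, with peaks of 2450 and 3340 bp in WT. Its limma adjusted p was 0.0595. The start of Rdh10 lies 1112 bp from that of Rpl7, and the WT peaks covered 6.03 and 4.33% of the Rpl7 gene span. Peaks at these 2 genes therefore cannot be told apart. Of 61 members tested 1 was called lower and 0 higher (limma), beside 5.71% and 0.55% of all promoters tested, so the members' counts of lost and of called promoters did not exceed the shares of all genes. Of the members, 4 had an unadjusted p under 0.05. The called member was Rpl37, at 25.05% in both WT and 0% in both KO libraries (−25.05 points, SE 2.86, adjusted p = 0.0128 by limma). The count was 2 without WT replicate 1, 0 without WT replicate 2 and 3 without KO replicate 1.

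H2AK119ub in mES cells gave no called member between KO and WT. Of 74 tested, 0 were called in either direction by limma, beside 0.362% higher and 0.399% lower over all promoters, and 3 had an unadjusted p under 0.05. Rpl35 and Rpl12 had lower means in KO with groups that did not overlap, by −36.1 and −20.8 points. Rps20, Rpl8 and Rpl36 had higher means without overlap, by 39.8, 34.0 and 27.3 points. With 2 libraries in each arm a lack of overlap carries little weight, and its share over all promoters is not given. It is therefore not a result about these members. Rpl35 starts 276 bp from Arpc5l and Rpl12 55 bp from Lrsam1, so their peaks cannot be told apart from those of these neighbours. Rps20 was the 1 member gained (0% in WT, 25.05 and 54.55% in KO), beside 0.985% of all genes, and 0 were lost, beside 0.88%. Without WT replicate 1, 2 members were called, and without either KO replicate 1 was.

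In HSPCs the arms differed little. For H2AK119ub 1 of 74 members was called higher in KO and 1 lower, beside 1.65% and 0.272% of all promoters tested by limma. Rpl35a had 33.4 and 31.35% in WT and 51.65 and 49.3% in KO (18.1 points, SE 2.4, adjusted p = 0.0413 by limma), and Rps2 fell by 33.2 points (SE 3.09, limma adjusted p = 0.0188). Rpl35a starts 235 bp from Iqcg, so peaks at the 2 genes cannot be told apart. At the RefSeq start of Rps2 the cover was 100% in both WT and 93.35 and 73.7% in the KO libraries, and with any coding start the difference was −8.45 points (limma adjusted p = 0.792). No member was gained or lost, beside 1.7% and 0.341% of all genes. With promoters of 2 kb on each side 0 members were called, and 6 were without WT replicate 1, 1 without KO replicate 1 and 1 without KO replicate 2.

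For H3K27me3 in HSPCs 4 of 61 members were called lower in KO and 0 higher, beside 1.87% and 1.66% of all promoters tested by limma. Rps20 had 65.7 and 62% in WT and 31.4 and 39% in KO (−28.7 points, SE 2.93, adjusted p = 0.0137 by limma). Rps27 had 25.05 and 32.85% in WT and 0% in KO (−28.95 points), and Rps18 had 25.05% in both WT and 0% in both KO libraries (−25.05 points). These 2 members entered the fit through their WT HSPC libraries alone, as no other library touched them, so their calls carry no weight of their own. With no filter on promoters 4 members were again called lower, beside 226 of all 20807 promoters. Rps18 starts 189 bp from Vps52 and Rps27 starts 44 bp from Rab13, and peaks at these neighbours cannot be told apart from those of the members. Rpl5 fell by 6.33 points (SE 0.979, limma adjusted p = 0.0487), from 31.4 and 31.35% to 25.05 and 25.05%. Peaks were lost at Rps18 and Rps27, beside 1.3% of all genes, and gained at 0, beside 1.2%. With 1 library left out, 8 (WT replicate 1), 10 (WT replicate 2), 9 (KO replicate 1) and 7 (KO replicate 2) members were called, and with the replicate number as a block 2 were. The shares of all promoters called in these refits are not given, so their counts are not a result about the members. H3K27me3 touched 78.7% ± 1.89 of the members in WT (SD, n = 2) and 74.7% ± 1.89 in KO (SD, n = 2), and the shares of all genes were 61.6 and 61.5%.

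In K562, few ribosomal protein promoters had an H2AK119ub peak. Peaks touched 13 and 18 of 76 members after siControl and 18 and 21 after siMBD6, beside 34.7 and 35.8% and 41.9 and 43.1% of all genes. The share of members was 20.4% ± 4.65 after siControl and 25.7% ± 2.79 after siMBD6 (SD, n = 2 each), and the libraries overlapped. Of 21 members tested, 1 was called higher and 0 lower, beside 3.58% and 0.492% of all promoters tested by limma. RPL35 had 0% in both siControl and 25.05% in both siMBD6 libraries (25.05 points). It entered the fit through its siMBD6 libraries alone, the other 55 members were not tested, and it starts 149 bp from ARPC5L, so the call carries no weight of its own. Without any 1 of the 4 libraries 0 were called. Peaks were gained at RPL15, RPS3A and RPL35, beside 3.26% of all genes, and lost at RPL3L, beside 0.403%. The promoter cover of RPL3L was 0.4 and 25.05% after siControl and 0% in both siMBD6 libraries. Over its gene span 52.0 to 67.5% lay under peaks in the 4 libraries, so the loss concerns the promoter window only. RPL39L had 25.05 and 0% after siControl and 79.35 and 75.95% after siMBD6 (65.1 points, SE 11.8, limma adjusted p = 0.163). H2AK119ub touched 6 of 76 members in all 4 libraries and 48 in none, the first 5 by symbol being RPL10L, RPL11, RPL13, RPL13A and RPL14. RPLP0, RPLP1, RPL5, RPS6 and RPS27L were also at 0% in every library, and RPS19 had 0 and 25.05% after siControl and 25.05 and 39.6% after siMBD6. RPL28, RPL36, RPL39L and RPL23A were among the highest, at 44.6 to 55.6%. Of the 75 member symbols found in both species, 45 (60%) had H2AK119ub in all 4 HSPC and in no K562 library, beside 28.4% of 15136 symbols shared by all genes.

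**Figure D4:**
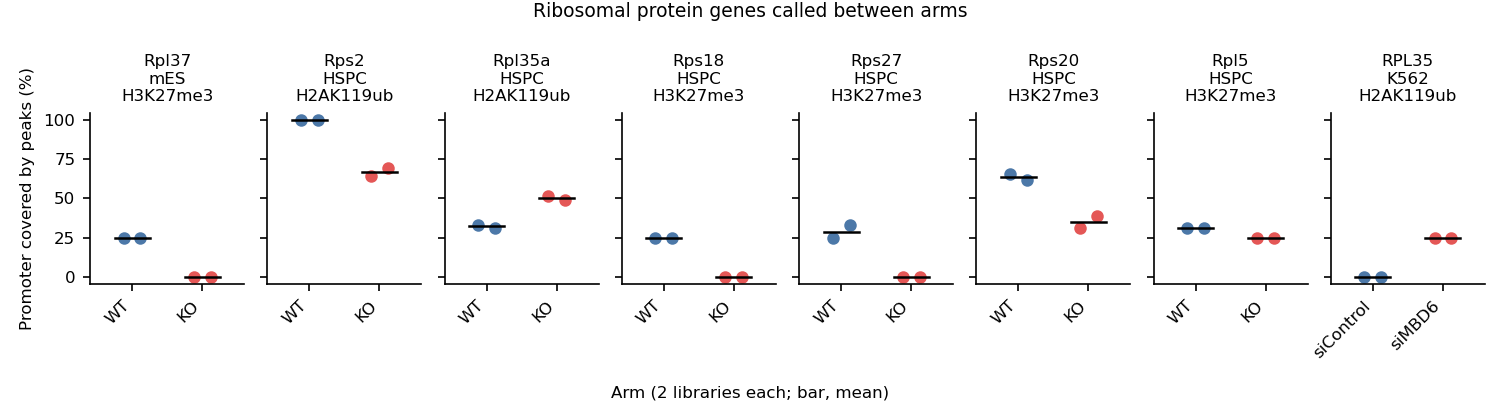
Promoter cover in percent (vertical axis) of the 8 ribosomal protein genes called between arms, with 1 point per library and a bar at the mean of 2. Rpl37, Rps18 and RPL35 sit at 25.05% in both libraries of one arm and at 0% in both of the other.

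The calls at Rpl37, Rps18, Rpl5 and RPL35 rest on peaks of 501 bp or little more in both libraries of an arm. At Rps18, Rpl5 and RPL35 the libraries of the fit have almost no spread. There the error is set by the variance that limma shares across promoters. At Rpl37 the mES libraries compared have no spread within an arm, but the fit also holds its HSPC libraries, at 31.35 to 39.65%. When the fit was tested on simulated data, unchanged promoters made up more of the calls than the threshold allows in every comparison of mouse libraries, the cell type comparisons included, and more so when the noise was drawn from the real on-and-off peaks. At the size of the K562 fit no promoter given a known difference was called.

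Other gene groups of the translation machinery went the same way between the cell types. Of 20 ribosome biogenesis genes, H2AK119ub touched 20 in every HSPC library and 13 to 16 in mES cells, and of 14 translation factors 14 and 8 to 12. Of 78 mitochondrial ribosomal protein genes, it touched 67 to 75 in HSPCs and 60 to 66 in mES cells. H3K27me3 touched 15 to 16, 10 to 13 and 59 to 61 of these lists in HSPCs and 0 to 7, 2 to 8 and 11 to 24 in mES cells. Of 7 other cytosolic ribosome genes, H2AK119ub touched 6 to 7 and 4 to 5. Canonical Polycomb targets gave the contrast, with H3K27me3 at 16 of 16 in every library of both cell types. Within the members, H2AK119ub in HSPCs touched 43 to 44 of 46 large-subunit genes and 29 of 29 small-subunit genes, with a mean cover of 65.4 to 67.8% and 62.1 to 76.6%.

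**Figure D5:**
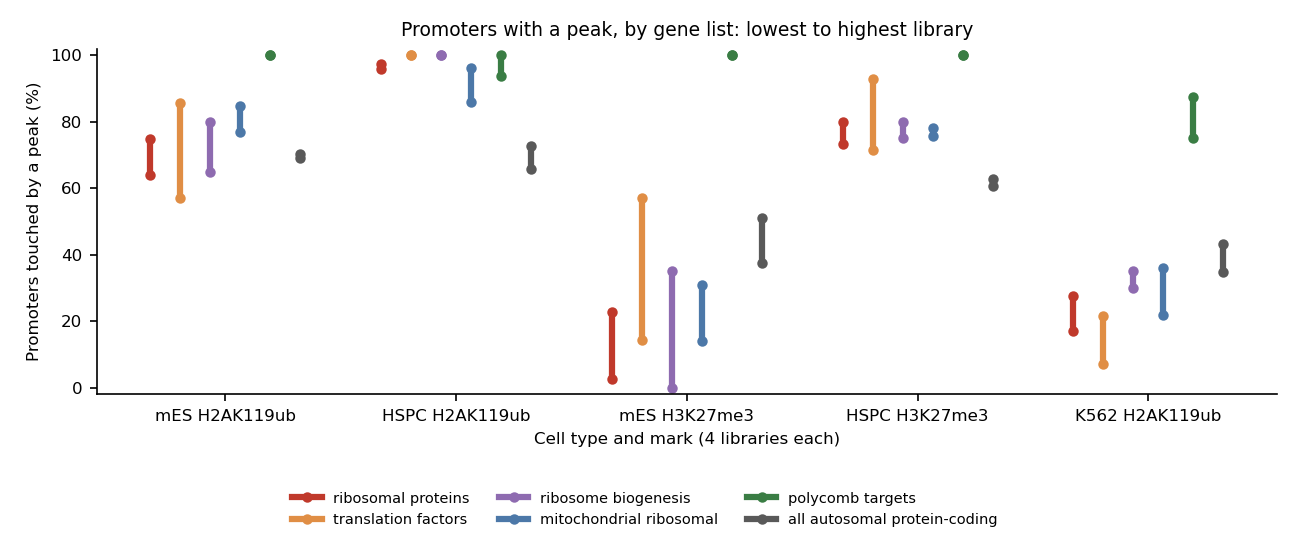
For each cell type and mark, lines join the lowest and the highest percent of promoters touched by a peak over 4 libraries, for the ribosomal protein genes, 4 other gene lists and all autosomal protein-coding genes. The ribosomal protein genes lie at 96.0 to 97.3% for H2AK119ub in HSPCs and at 2.67 to 22.7% for H3K27me3 in mES cells.

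Promoter sequence was the last feature described. RefSeq gave a promoter for 55 of the 75 mouse members and 15686 genes in all. Their median CpG number was 21 in 300 bases, against 15 over all genes, and the median GC content was 57.0 and 57.3%. A start-site tract of at least 6 C or T bases, beginning with C within 10 bases of the start, was found in 52.7% of the members and 19.5% of all promoters. The ETS motif CCGGAAG, searched on both strands, was found in 22 of 55 members, or 40%, against 12.6%. The motif CTCGCGAG was found in 10.9% against 1.34%, the YY1 motif AAGATGGC in 7.27% against 3.25%, GGGCGG in 56.4% against 48.8% and TATAAA in 5.45% against 12.9%, each on both strands. Members with H2AK119ub in all 4 mES libraries had a median GC content of 59.7% (28 members), and those with it in none 53.3% (12 members). Their median CpG numbers were 21.5 and 19. The median ratio of CpGs observed to those expected from the C and G content went the other way, at 0.809 and 0.955. These are descriptions over the genes with a sequence, and their part in the marks was not tested.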

How the data were processed

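The 20 libraries were mapped to 10 groups of 2 from their titles. The deposited files hold peak positions only (chromosome, start and end), 1 list per library, with no count or score. The authors ran CUT&Tag and, per the labels, mapped reads to mm10 or hg38; the submitters' processing notes list Trimmomatic 0.39, Bowtie2 2.4.1 and HOMER 4.9, the methods give MACS2 in broad mode as the CUT&Tag peak caller and name Picard. The notes do not list MACS2, so the sources differ on the caller. A Drosophila spike-in is not reflected in positions.

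Gene starts came from GENCODE M21 (mouse) and 44 (human). A promoter was the start and 1 kb on each side; a peak touched it with at least 1 bp. Cover (percent) was compared with limma 3.58.1 (R 4.3.3, eBayes with trend) on promoters touched in at least 2 libraries of the fit, with all 8 mouse libraries of a mark sharing 1 variance and K562 fitted alone, and called at an adjusted p under 0.05 (Benjamini-Hochberg). Shares of members touched were given with no test. Python 3.11.15, numpy 2.4.6, pandas 2.3.3 and matplotlib 3.10.9 were used.

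The members, lists and tests were chosen with earlier results of these data known. Named genes were, per comparison, the called members (up to 10 in each direction; otherwise the 3 largest differences without overlap), up to 8 gained or lost, the highest, widest and untouched members, and fixed genes with known roles. The fit was tested on simulated data with known differences, with normal noise and with noise resampled from the real libraries: it recovered the size of the differences, left many of them uncalled, called none of them at the size of the K562 fit, and in mouse called more unchanged promoters than the threshold allows. Replicate numbers did not pair the libraries: the correlation of replicate deviations between groups was −0.12 to 0.0326. Some genes that this rule names are not reported here.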

Additional observations from a re-analysis of the deposited data

Results flagged for a closer look

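In a test of the HSPC effect of Tet2 loss on H3K27me3 cover less the mES effect (limma interaction over all promoters), 3 members passed, at −25.05 points for Rps18, −28.95 for Rps27 and −28.65 for Rps20. None of the 3 had an H3K27me3 peak in any mES library, so the mES effect was 0 by lack of peaks and each value restates the HSPC difference. Rps18 and Rps27 also entered the fit through their WT HSPC libraries alone. The values are therefore no evidence that the effect differs between the cell types. With 2 libraries in a group, no check for single outlying samples was made.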

How the results depend on the processing

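Of 175 alternative values of the main results, 131 stayed close to the main value and 44 did not. Counts of called members were not scored for reversal, and shares only where the libraries of the main setting did not overlap, and 0 of these reversed. Elsewhere a sign could change, as for the mES H2AK119ub share difference, −1.33 points in the main setting and up to 4 with a library left out. Of 405 values for 30 named members, 367 were the same, 38 lost the call and 0 reversed. The cause of each change below was not tested, other than that fewer libraries or members enter. Unless a share of all promoters is stated, counts of members called in these alternative fits, here or above, are not a result about the members. They show only how far the counts move. Members called for HSPC H2AK119ub, KO against WT, numbered 0 with promoters of 2 kb on each side, 5 with peaks of at least 1 kb, 1 with lists of equal length, 1 with any coding transcript start, 1 with no filter and 0 away from other starts. For HSPC H3K27me3 they numbered 2 away from other starts, and for K562 0 with promoters of 2 kb and 0 away from other starts. H3K27me3 between cell types gave 10 called with peaks of at least 1 kb. The numbers do not pair the libraries; with the replicate block 0, 1, 0, 2 and 0 members were called between arms (mES H2AK119ub, mES H3K27me3, HSPC H2AK119ub, HSPC H3K27me3, K562), and 51 and 51 between cell types. The crossed pairing, added after seeing the data for mES H3K27me3, gave 1. Also added after seeing the data, leaving out the 12 mouse members whose coding starts lie over 1 kb apart left 49 and 47 called between cell types.

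The difference in the share of members touched was, for mES H3K27me3, −2.67 points with peaks of at least 1 kb, −2.67 with 50% of the promoter under peaks and −20.0 away from other starts. For HSPC H2AK119ub it was 3.33 and 2.0 under the first pair of these settings. For HSPC H3K27me3 it was −6.0 with promoters of 2 kb, −7.33 with lists of equal length and −1.67 away from other starts. Between cell types it was 57.7 (at least 1 kb), 42.3 (equal length) and 56.7 (50%) for H2AK119ub, and 23.3 and 21.7 (at least 1 kb, 50%) for H3K27me3.

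Leaving out each library in turn gave 0 to 2 called members for mES H2AK119ub, 0 to 3 for mES H3K27me3, 1 to 6 for HSPC H2AK119ub, 7 to 10 for HSPC H3K27me3, 0 to 0 for K562, and 37 to 52 and 40 to 47 between cell types. For shares touched the ranges were −6.67 to 4, −18.7 to −14.7, −0.667 to 0.667, −5.33 to −2.67 and 1.97 to 8.55 points between arms, and 26.4 to 30 and 60.2 to 66.9 between cell types. An arm left with 1 library was assumed to vary like the others. Without HSPC WT H2AK119ub replicate 2, 45 members were called between cell types and the share difference was 28.2 points. The unknown depth limits every absent peak.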
